A study of Bos taurus with 10 samples.

Results

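The B and plasma cell genes IGHM, MZB1, JCHAIN, CD79A, CD79B, MS4A1, CR2 and POU2AF1 were followed together with PIGR, the epithelial receptor that carries their antibody product, in mammary tissue of 10 cows. All probe sets whose only gene symbol in the platform annotation was one of these 9 genes were taken, which gave 10 of 24016 probe sets and covered 8 of the 9 genes. CD79B had no probe set named for it, and MS4A1 and CR2 had 2 each. The neighboring group held 5 lactating heifers of the German Holstein Frisian breed with E. coli 1303, a mastitis isolate, in another gland of the same udder (500 CFU in 2 ml of saline), and its tissue came from glands that received no bacteria, 24 h after the inoculation. The control group held 5 healthy, untreated heifers of the same kind. In both groups estrus had been synchronized and the udder emptied with oxytocin before the experiment, and each cow gave 1 array. Neighboring samples combined a saline-treated and an untreated gland of the cow, while neighboring 4 came from a single untreated gland. Control tissue was pooled from glands of a cow. Glands with low somatic cell counts in milk had been chosen for the neighboring pools.

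Mature B cells carry membrane antibody together with the signaling chains CD79A and CD79B, and the surface proteins MS4A1 (CD20) and CR2 (complement receptor CD21). Once they turn into plasma cells they lose most of these surface proteins and make large amounts of immunoglobulin, which MZB1 helps to fold and the joining chain JCHAIN links into polymeric IgM and IgA. In the lactating gland plasma cells lie close to the milk-producing epithelium, which takes up polymeric antibody with PIGR at its basal side and releases it into milk bound to a part of the receptor. Ruminant milk differs from human milk in carrying mainly IgG, for which other Fc receptors are known.

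In the main fit, which left out neighboring 5 and 1 control array, PIGR was the member with the largest change. It fell by 0.88 on the log2 scale in neighboring tissue, a control over neighboring ratio of 1.84. CD79A and 1 of the CR2 probe sets were lower by smaller amounts. The antibody chain IGHM, JCHAIN, MZB1, MS4A1 and POU2AF1 did not pass the test, with intervals that reached from below to above zero. All 10 probe sets had their highest neighboring value on the same array, neighboring 5. With that array put back no member passed. The same held on all 10 arrays, where PIGR had a difference of -0.76 (adjusted p = 0.0879 by limma). In bulk tissue, fewer cells of a type and less RNA per cell cannot be told apart.

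Array values were log2 RMA values (robust multi-array average), and differences are neighboring minus control on that scale. Following the study, the fit was made without neighboring 5 and control 3, on 4 arrays per group. The study's methods had set aside neighboring 5 as a biological and control 3 as a technical outlier. Its clustering had placed neighboring 5 in the control group. Leaving out an array that resembled the controls favors a separation of the groups, so p-values from the fit without it may be too small. Each member was also fitted on all 10 arrays. A gene was called at an adjusted p under 0.05 from limma with Benjamini-Hochberg adjustment over all probe sets tested. Of the 10 member probe sets, 3 were called, all lower in neighboring tissue (PIGR, CD79A and CR2 probe set 1). A filter left out the dimmest 40% of probe sets by mean. Of the probe sets that passed it 12% were called lower and 17.7% higher, and of all probe sets 9.21% were called lower and 11.1% higher. In all, 5 of the 10 member probe sets passed the filter (IGHM, MZB1, JCHAIN, CR2 probe set 1 and PIGR). CD79A, both MS4A1 probe sets, CR2 probe set 2 and POU2AF1 lay under it and were read from the fit of all 24016 probe sets. MZB1 passed the filter only through neighboring 5 (7.16). Its mean over the 10 arrays was 5.83 against a cutoff of 5.71, and without that array it fell under the cutoff. When all 10 arrays entered, 0 of the 10 member probe sets passed by limma (1, PIGR, had an unadjusted p under 0.05), where 5.37% of the filtered probe sets were called lower and 7.16% higher, and 3.04% and 3.86% of all probe sets. Spike-in hybridization controls moved with the groups, with means of 10.23, 10.38, 10.20, 10.43 and 10.65 on neighboring 1 to 5, against 10.84, 10.68, 10.64, 10.42 and 10.79 on control 1 to 5. Apart from control 4, every control array lay above neighboring 1 to 4. With that mean added to the model 0 members were called by limma (0 also at an unadjusted p under 0.05), and 251 of the filtered probe sets were, against 4283 without it.

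**Figure D1:**
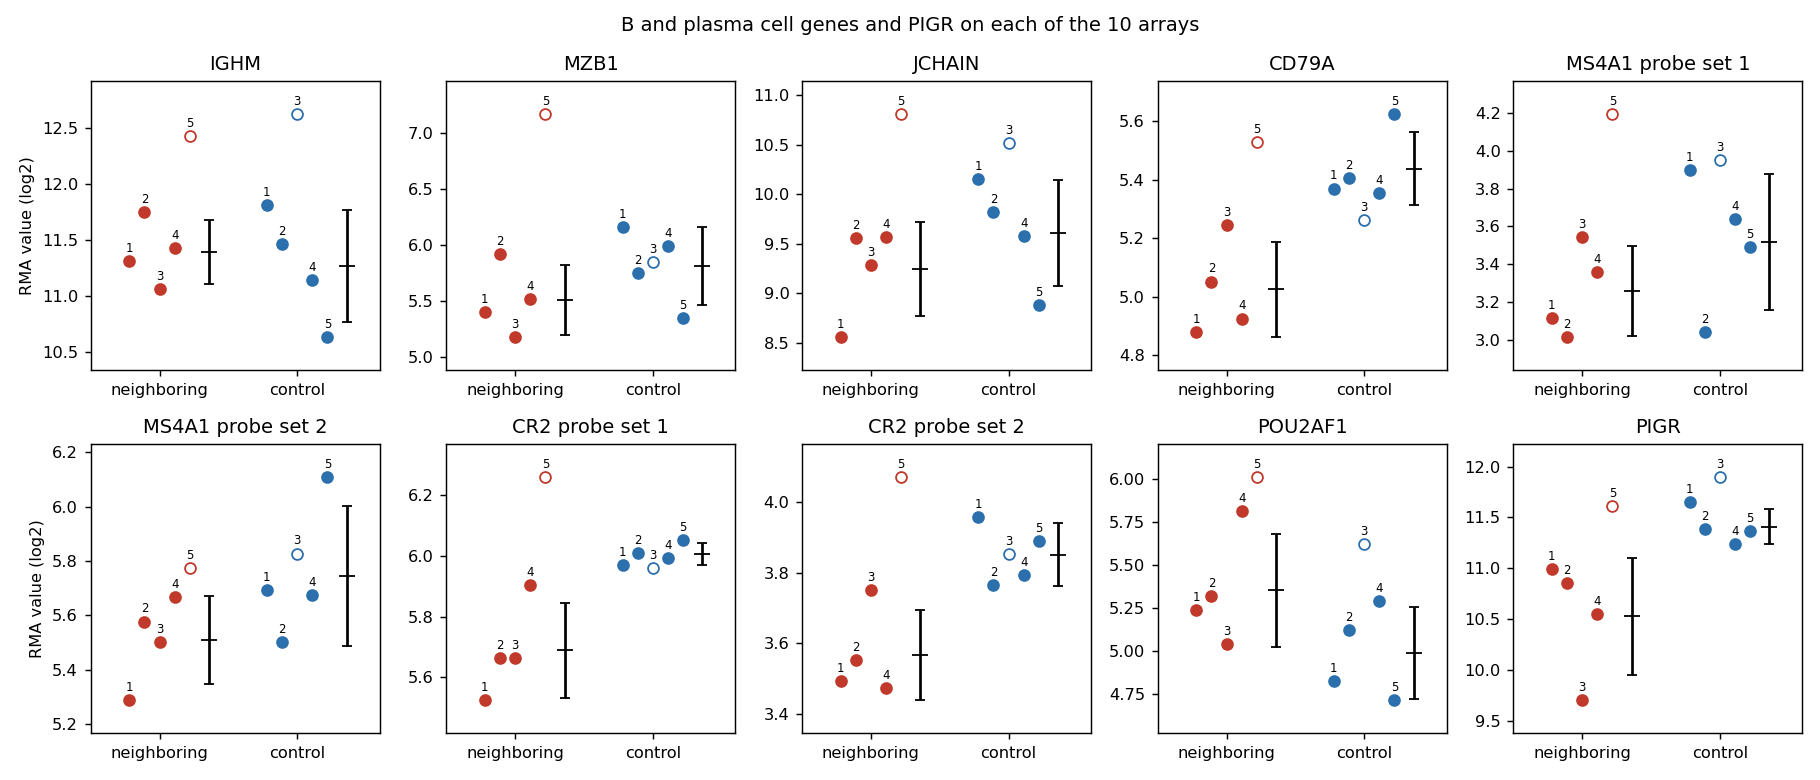
RMA value (log2) of each member probe set on the 5 neighboring arrays (red, left) and the 5 control arrays (blue, right), with replicate numbers beside the points. Open circles are neighboring 5 and control 3, which were left out of the fit, and the bars are mean and SD of the 4 filled arrays per group. PIGR, CD79A and both CR2 probe sets show no overlap between the filled red and blue points, while neighboring 5 lies among or above the control arrays in every panel.

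IGHM, the heavy chain constant region of IgM, read 11.31, 11.75, 11.07, 11.43 and 12.43 on neighboring 1 to 5, against 11.82, 11.46, 12.62, 11.15 and 10.64 on control 1 to 5. The control arrays spanned a wider range than the neighboring arrays, and the lowest value of all was a control array, control 5. The groups overlapped fully, with a difference of 0.13 ± 0.23 (SE, n = 4 each), a 95% interval of -0.39 to 0.64 and an adjusted p of 0.702. With all 10 arrays it was 0.06 ± 0.34 (adjusted p = 0.914), and leaving out 1 array gave values between -0.084 (without control 5) and 0.31 (without control 1).

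JCHAIN, whose product joins antibody units into polymers and is needed for their binding by PIGR, read 8.56, 9.56, 9.29, 9.57 and 10.81 on neighboring 1 to 5. The control arrays read 10.15, 9.82, 10.52, 9.58 and 8.88. Neighboring 1 was the lowest and neighboring 5 the highest of all arrays, so the neighboring group alone covered the whole range. The difference was -0.37 ± 0.28 (95% interval -0.99 to 0.26, adjusted p = 0.341), and -0.23 ± 0.38 on all 10 arrays (adjusted p = 0.684). It was -0.14 without neighboring 1, -0.18 without control 1 and -0.61 without control 5.

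MZB1, an endoplasmic reticulum chaperone of plasma cells that assists IgM assembly in mouse and human, read 5.40, 5.92, 5.18, 5.52 and 7.16 on neighboring 1 to 5, against 6.16, 5.75, 5.84, 5.99 and 5.35 on control 1 to 5. Neighboring 5 stood more than 1 unit above every other array, by 1.66 over the mean of neighboring 1 to 4 and by 1.35 over the mean of the 4 fitted control arrays. Without it the difference was -0.30 ± 0.19 (95% interval -0.73 to 0.12, adjusted p = 0.252). With neighboring 5 and control 3 included it was 0.020 ± 0.32 (adjusted p = 0.971), and with neighboring 5 alone put back 0.026. The 8-array value was -0.20 without neighboring 3, -0.19 without control 1 and -0.46 without control 5.

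CD79A, a signaling chain of the B cell receptor, read 4.88, 5.05, 5.25, 4.93 and 5.53 on neighboring 1 to 5, against 5.37, 5.41, 5.26, 5.36 and 5.62 on control 1 to 5. Neighboring 1 to 4 all lay below every control array, while neighboring 5 lay above all control arrays but control 5. The difference on 8 arrays was -0.41 ± 0.11 (95% interval -0.66 to -0.16, adjusted p = 0.0265). The call was lost without neighboring 1 (adjusted p = 0.0551), neighboring 4 (0.0650), control 2 (0.0511) or control 5 (0.0675), and on all 10 arrays the difference was -0.28 ± 0.13 (adjusted p = 0.181).

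CR2 binds complement C3 fragments on B cells and on follicular dendritic cells. Its probe set 1 read 5.53, 5.66, 5.66, 5.90 and 6.26 on neighboring 1 to 5, against 5.97, 6.01, 5.96, 5.99 and 6.05 on control 1 to 5. The control arrays were almost level, with an SD of 0.036 over 5 arrays, lower than that of all but 0.52% of the probe sets that passed the filter. Neighboring 1 to 4 lay below that narrow band and neighboring 5 above it. The difference was -0.32 ± 0.10 (95% interval -0.54 to -0.10, adjusted p = 0.0367). The call held without neighboring 4 (adjusted p = 0.0200) and was lost without any of the other 7 arrays, with adjusted p-values of 0.0605 to 0.0847, and on all 10 arrays it was -0.19 ± 0.13 (adjusted p = 0.300).

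CR2 probe set 2 read 3.49, 3.55, 3.75, 3.47 and 4.07 on neighboring 1 to 5, against 3.96, 3.76, 3.85, 3.79 and 3.89 on control 1 to 5. The order of the groups was as on probe set 1, with neighboring 1 to 4 below all control arrays and neighboring 5 above them. Its difference of -0.28 ± 0.10 did not pass (95% interval -0.51 to -0.06, adjusted p = 0.0690), and on all 10 arrays it was -0.18 ± 0.12 (adjusted p = 0.324). Both probe sets derive from the same transcript record, so they are not independent measurements. Which strand each probe set reads was not found in the sources, and a probe set on the opposite strand would not measure CR2 mRNA.

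MS4A1 is a membrane protein of B cells known as CD20. Probe set 1, which lay low in the array's range, read 3.11, 3.01, 3.54, 3.36 and 4.19 on neighboring 1 to 5, against 3.90, 3.04, 3.95, 3.64 and 3.49 on control 1 to 5. Probe set 2 read 5.29, 5.58, 5.50, 5.67 and 5.77 on neighboring 1 to 5, against 5.69, 5.50, 5.83, 5.67 and 6.11 on control 1 to 5. The groups overlapped on both probe sets. The differences were -0.26 ± 0.18 (95% interval -0.65 to 0.13, adjusted p = 0.319) and -0.24 ± 0.14 (95% interval -0.54 to 0.07, adjusted p = 0.249). Probe set 1 was -0.13 without control 1 and -0.42 without control 2, and probe set 2 was -0.11 without control 5. Entering all 10 arrays gave -0.16 ± 0.22 (adjusted p = 0.665) and -0.20 ± 0.13 (adjusted p = 0.318).

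POU2AF1, a coactivator of octamer factors that immunoglobulin genes need in B cells, read 5.24, 5.32, 5.04, 5.81 and 6.01 on neighboring 1 to 5, against 4.82, 5.12, 5.62, 5.29 and 4.72 on control 1 to 5. Neighboring 4 and neighboring 5 lay above all control arrays, and control 1 and control 5 below all neighboring arrays, with the rest interleaved. It was the member with the largest positive difference, 0.36 ± 0.18 on 8 arrays (95% interval -0.02 to 0.75, adjusted p = 0.162) and 0.37 ± 0.21 on 10 (adjusted p = 0.267). Neither passed, and the 8-array value was 0.21 without neighboring 4.

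PIGR, the polymeric immunoglobulin receptor of the secretory epithelium, read 10.99, 10.86, 9.71, 10.55 and 11.61 on neighboring 1 to 5, against 11.65, 11.38, 11.90, 11.24 and 11.36 on control 1 to 5. Neighboring 1 to 4 all lay below every control array, with neighboring 3 far below the others, and neighboring 5 lay inside the control range. Means were 10.5 ± 0.57 on neighboring 1 to 4 and 11.4 ± 0.17 on the 4 fitted control arrays (SD, n = 4 each). The difference was -0.88 ± 0.24 (95% interval -1.41 to -0.35, adjusted p = 0.0206). Leaving out neighboring 3 gave -0.61 ± 0.14 (adjusted p = 0.0174), and leaving out control 1 ended the call (-0.80 ± 0.26, adjusted p = 0.0541). The 10 arrays together gave -0.76 ± 0.28 (adjusted p = 0.0879), and the model with the spike-in mean gave -0.47 ± 0.40 (adjusted p = 0.565).

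**Figure D2:**
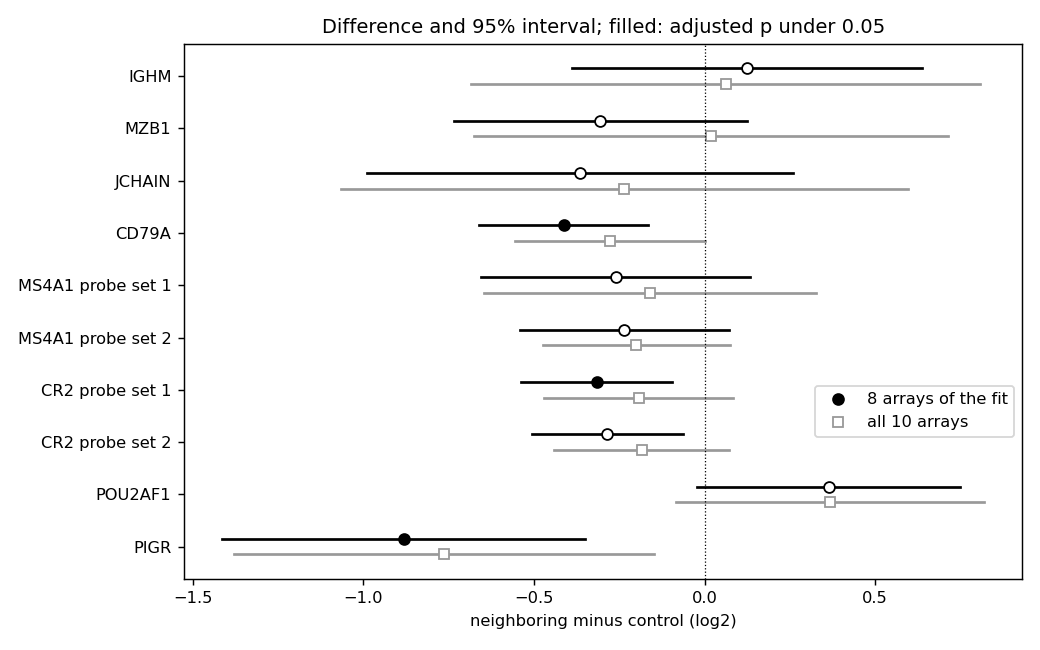
Difference (neighboring minus control, log2) with its 95% interval for each member probe set, from the 8 fitted arrays (black circles) and from all 10 arrays (gray squares), with filled marks for an adjusted p under 0.05. PIGR, CD79A and CR2 probe set 1 are filled on 8 arrays and no mark is filled on 10, and MZB1 changes side.

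On the 8 fitted arrays the groups did not overlap for 4 of the 10 member probe sets (PIGR, CD79A and both of CR2), always with the neighboring arrays lower, against 12.7% of all probe sets. With all 10 arrays 0 of the member probe sets were free of overlap, against 3.21% of all probe sets with every neighboring value lower. For PIGR, CD79A and both CR2 probe sets the overlap came from neighboring 5, while the other member probe sets overlapped without it. Neighboring 5 was the highest of the neighboring arrays for 10 of 10 member probe sets, against 31.7% of all probe sets. It was the highest of all arrays for 6 of 10 (MZB1, JCHAIN, MS4A1 probe set 1, both CR2 probe sets and POU2AF1), against 6.75% of all probe sets. It stood above the mean of neighboring 1 to 4 by 1.66 for MZB1, 1.56 for JCHAIN, 1.08 for PIGR and 1.04 for IGHM, and by 0.26 to 0.94 for the other 6 probe sets. Set against the mean of the 4 fitted control arrays it was higher by 1.35 for MZB1, 1.20 for JCHAIN, 1.16 for IGHM and 1.02 for POU2AF1, but by 0.20 for PIGR and 0.09 for CD79A. Against control 3, which that mean leaves out, it was lower for IGHM and little higher for JCHAIN. A high level on neighboring 5 was not particular to the members. A list of 10 pan-leukocyte genes, described below, also had its highest mean of all arrays there.

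Control 3, the other array outside the fit, was also high for part of the members. It exceeded the mean of the other control arrays by 1.35 for IGHM, 0.91 for JCHAIN, 0.63 for POU2AF1 and 0.49 for PIGR. Neighboring 5 and control 3 were the highest pair of all arrays for 3 of 10 member probe sets (IGHM, JCHAIN and MS4A1 probe set 1), against 2.39% of all probe sets. For MZB1 control 3 lay near the control mean (0.034 above it). Neighboring 1 stood at the opposite end: it was above the probe set mean for 0 of the 10 and lowest of all arrays for 4. Control 1 and control 3 were above the mean for 9 of 10 probe sets each.

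**Figure D3:**
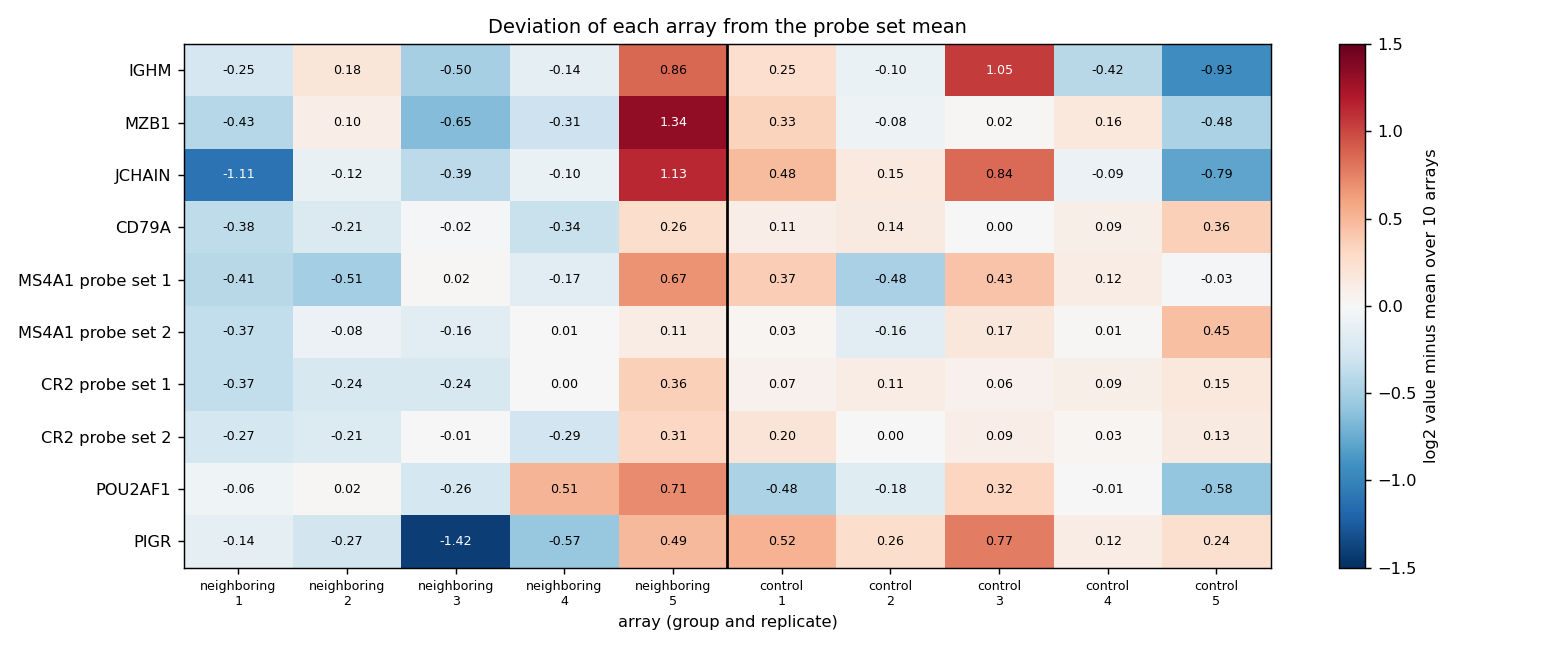
Deviation (log2) of each array from the probe set's mean over the 10 arrays, with neighboring arrays left of the line and control arrays right of it. Neighboring 5 is above the mean in all 10 rows, by up to 1.34 for MZB1, control 3 is highest for IGHM (1.05) and neighboring 3 has the lowest deviation, -1.42 for PIGR.

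The members fell apart by how much they varied between cows. JCHAIN had an SD of 0.691 over the 10 arrays, more than 97.2% of the probe sets that passed the filter, and PIGR (0.638), IGHM (0.608) and MZB1 (0.563) were above 96.4%, 95.7% and 94.4% of them. The CR2 and CD79A probe sets and MS4A1 probe set 2 varied less, with SDs of 0.200 to 0.246. Variation of IGHM and JCHAIN was present within the control group as well, with SDs of 0.744 and 0.619 over the 5 control arrays. Without control 3 these were 0.500 and 0.538. PIGR and MZB1 had SDs of 0.264 and 0.303 over the 5 control arrays. MZB1, which passed the filter only through neighboring 5, had an SD of 0.311 on neighboring 1 to 4 and 0.789 with neighboring 5 added. For IGHM, JCHAIN and MZB1 the SD over the 10 arrays was larger than the group difference.

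Profiles were compared by the root mean square difference of their log2 values after each probe set was centered on its mean over the 10 arrays. Among members the nearest profiles were those of CD79A and CR2 probe set 2 (0.105) and the 2 CR2 probe sets (0.135), and the farthest were POU2AF1 and PIGR (0.688). Since this measure is small for probe sets that vary little, it follows the spread given above. JCHAIN, the member with the highest SD, had IGHM as its nearest gene of 7054 (0.347), with MZB1 also among its nearest 5 (0.399), against a median of 0.701 over all those genes. The other 3 were LOC524810 (0.361), the leukocyte GTPase RAC2 (0.408) and SLAMF7 (0.431), a surface protein of plasma and natural killer cells. On the 8 fitted arrays 0 of these 5 remained, so IGHM and MZB1 were among the nearest genes only with neighboring 5 and control 3 included.

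The 5 genes nearest to PIGR were CCDC115 (0.242), LPL (0.247), TBC1D24 (0.249), ALDH1A1 (0.268) and COQ2 (0.277), against a median of 0.663 over 7054 genes. LPL, the lipoprotein lipase that supplies fatty acids for milk fat, read 12.65, 12.77, 11.74, 12.20 and 12.78 on neighboring 1 to 5, against 13.07, 12.89, 13.26, 13.01 and 13.11 on control 1 to 5. As for PIGR, neighboring 3 was lowest and control 3 highest. On the 8 fitted arrays 3 of these 5 remained (CCDC115, LPL and TBC1D24), with BCAR3 (0.203) and the T cell gene CD8B (0.258) as the other 2, and IGCGAMMA, an IgG heavy chain constant region, came next (0.262).

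Genes known from other tissues to act with the members were counted in 12 lists, with 1 probe set per gene. Over all 7055 genes tested, 20.2% were called higher and 11.5% lower, with a median difference of 0.06. The list of the plasma cell program and antibody secretion had 8 of its 14 measured genes lower and 0 higher, with a median of -0.44. The 6 largest were FKBP11 (-1.16 ± 0.11, adjusted p = 0.000173), TXNDC5 (-1.01 ± 0.16), PDIA4 (-0.74 ± 0.13), SEC11C (-0.74 ± 0.13), DNAJB9 (-0.73 ± 0.15) and SPCS2 (-0.49 ± 0.11). These encode folding enzymes, a cochaperone and signal peptidase subunits of the endoplasmic reticulum, which other secretory cells use as well. The remaining 2 called genes were DERL3, of protein degradation at the endoplasmic reticulum (-0.49 ± 0.15, adjusted p = 0.0341), and ELL2, an elongation factor that favors the secreted form of antibody mRNA in the mouse (-0.40 ± 0.12, adjusted p = 0.0332). The DERL3 call was lost without any 1 of neighboring 1, 3 and 4 and control 2, 4 and 5 (adjusted p = 0.0513 to 0.0954), and the ELL2 call without any 1 of neighboring 2 and 4 and control 1, 4 and 5 (0.0581 to 0.0884). PRDM1, a master regulator of plasma cells, had 0.23 ± 0.12 (adjusted p = 0.161) and SLAMF7 -0.35 ± 0.15 (adjusted p = 0.105). PIM2 had -0.14 ± 0.09 (adjusted p = 0.266). Of the 25 listed genes 16 were named on the array, and XBP1, IRF4, TNFRSF17 and SDC1 were not among them. CD38 lay under the filter. With all 10 arrays 1 of the 14 passed (TXNDC5). The count was 2 with neighboring 5 put back and 1 (FKBP11) with the spike-in mean in the model. On all 10 arrays FKBP11 had -0.74 ± 0.28 and lost its call (adjusted p = 0.0907). Its value on control 3 (8.76) lay below its mean on neighboring 1 to 4 (9.03). When the dimmest measured probe set stood for each gene, 7 of the 14 were lower. PDIA4 had 3 probe sets past the filter, of which 1 was called lower.

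The list of B cell identity and signaling had 2 of 8 measured genes lower and 0 higher, with a median of -0.18. Without neighboring 3, neighboring 4, control 1, control 4 or control 5 it had 1, and with the spike-in mean in the model 0. IKZF3, a transcription factor of lymphocytes, fell by 0.67 (SE 0.16, adjusted p = 0.0127), and on all 10 arrays by 0.59. The inhibitory Fc receptor FCGR2B had -0.59 ± 0.20 (adjusted p = 0.0487), a call lost on all 10 arrays and without any 1 of neighboring 1, 3 and 4 and control 1, 4 and 5 (adjusted p = 0.0573 to 0.109). LYN, SYK and CD40 had differences of -0.27, 0.11 and 0.09 and did not pass. Of the 36 listed genes 14 were named on the array, and CD22 and PAX5 were not among them. Of 17 other immunoglobulin chains in a further list only 1, IGLL1, was named on the array, and it lay under the filter. IGCGAMMA, which that list did not hold, is described under the other observations.

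Genes for the homing and survival of antibody-secreting cells were lower in 7 of 14, higher in 0, with a median of -0.34. ALDH1A1, which makes retinoic acid, fell by 1.00 (adjusted p = 0.00162), TGFB1 by 0.91 and the chemokine CXCL12 by 0.83. Lower values were also found for the integrin ITGB7 (-0.45 ± 0.10) and the selectin ligand SELPLG (-0.40 ± 0.09). LTB, a lymphoid tissue cytokine, had -0.51 ± 0.18 (adjusted p = 0.0498), a call lost on all 10 arrays and without any 1 of neighboring 3 and 4 and the 4 control arrays (adjusted p = 0.0557 to 0.107). CCL28, the epithelial chemokine known to draw IgA plasma cells into the mouse mammary gland, had -0.05 ± 0.19 (adjusted p = 0.855). With all 10 arrays 4 of the 14 were lower, and with neighboring 5 put back or with the spike-in mean in the model 1.

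Of 13 antibody receptor and transcytosis genes 3 were lower and 0 higher, with a median of -0.05. With the spike-in mean in the model 0 were called. FCGRT, the heavy chain of the neonatal Fc receptor that binds IgG, fell by 0.69 (SE 0.09, adjusted p = 0.000876), and on all 10 arrays by 0.61 (adjusted p = 0.0196). Its light chain partner B2M had 0.01 ± 0.13 (adjusted p = 0.967). The kinase YES1, which acts in PIGR transport in the mouse, had -0.40 ± 0.09 and the retromer subunit VPS35 -0.38 ± 0.12, a call lost without any 1 of neighboring 2, 3 and 4 and control 1, 4 and 5 (adjusted p = 0.0591 to 0.0907). RAB25, RAB11A and RAB3D, small GTPases of apical recycling, had -0.36, -0.14 and 0.05 and did not pass.

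Among 16 genes known to regulate PIGR transcription 1 was higher and 1 lower, with a median of 0.17. In this list 2 were higher without neighboring 2, neighboring 4 or control 1, and 0 were called with the spike-in mean in the model. USF1, which binds an E box of the human PIGR promoter, was higher by 0.53 ± 0.11 (adjusted p = 0.00672), and on all 10 arrays by 0.34 (adjusted p = 0.146). NR3C1, the glucocorticoid receptor, fell by 0.86 (SE 0.19, adjusted p = 0.00925). The prolactin receptor PRLR had 0.87 ± 0.32 (adjusted p = 0.0622), and RELA and NFKB1 had 0.22 and 0.11 and did not pass. Of 6 complement partners of CR2 1 was higher (2 without control 2, 0 with the spike-in mean in the model) and 0 lower. CFI, the protease that trims C3b to the forms CR2 binds, was higher by 1.79 ± 0.24 (adjusted p = 0.000850), and C3 itself had 0.46 ± 0.28 (adjusted p = 0.238).

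**Figure D4:**
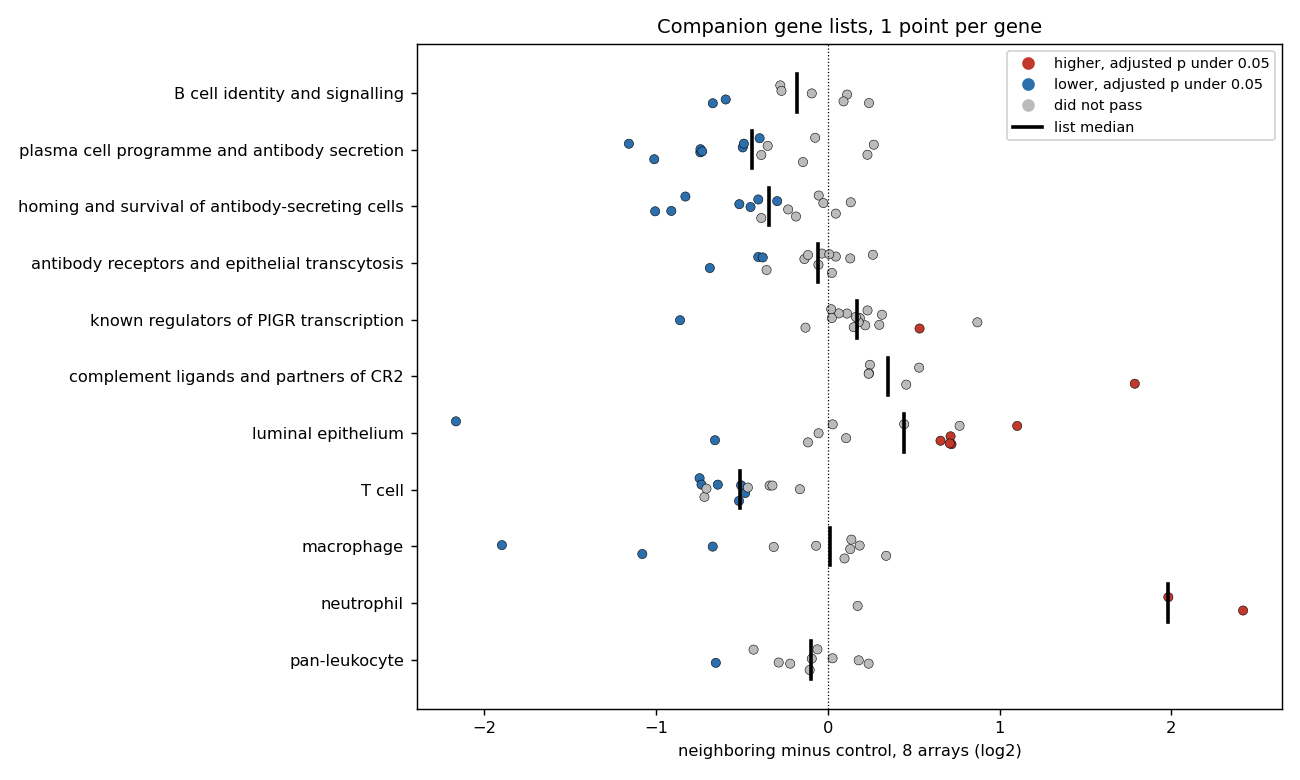
Difference (neighboring minus control on 8 arrays, log2) of each measured gene of 11 lists, 1 point per gene, with list medians as black bars, genes higher at an adjusted p under 0.05 in red, lower in blue and the rest in gray. The plasma cell, homing and T cell lists hold lower genes and no higher gene. The same holds for the B cell, antibody receptor, macrophage and pan-leukocyte lists. Most neutrophil and luminal calls are higher.

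Markers of some other cells of the gland differed between the groups as well. The T cell list had 6 of 12 genes lower and 0 higher (median -0.51), and 10 of 12 lower without neighboring 4. This list had 1 lower on all 10 arrays, and 0 with neighboring 5 put back or the spike-in mean in the model. Its mean level was 6.38 to 6.83 on neighboring 1 to 4 and 7.20 on neighboring 5, against 6.99 to 7.22 on the 5 control arrays. Like PIGR and CD79A, it set neighboring 1 to 4 below all control arrays and neighboring 5 among them. The 6 were CD3E, a chain of the T cell receptor complex (-0.75 ± 0.16, adjusted p = 0.00751), ZAP70 (-0.73 ± 0.22), CD8B (-0.64 ± 0.15), CD2 (-0.52 ± 0.12), CD3D (-0.50 ± 0.14) and the kinase LCK (-0.48 ± 0.10). The call of ZAP70 was lost without any 1 of neighboring 2, 3 and 4 and control 1 and 5 (adjusted p = 0.0509 to 0.0744), and that of CD3D without neighboring 3, control 1 or control 4 (0.0518 to 0.0554).

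Luminal epithelium, the cell type that makes PIGR, was represented by 13 measured genes with 5 higher and 2 lower (median 0.45). KRT19 (1.10 ± 0.23), CLDN7 (0.72 ± 0.13), EPCAM (0.72 ± 0.09), CLDN3 (0.71 ± 0.15) and ESRP1 (0.66 ± 0.10) were higher, and AGR2, an endoplasmic reticulum protein of secretory epithelium, fell by 2.16, with the mucin MUC1 also lower. The list's mean level was 9.72 to 9.97 on the 5 neighboring arrays, against 9.63 to 9.83 on the 5 control arrays. KRT8, a further luminal keratin, lay under the filter. With all 10 arrays and with neighboring 5 put back 3 were higher and 2 lower, with the spike-in mean 0 in either direction, and 7 were higher without neighboring 1. KRT19 (adjusted p = 0.0771) and CLDN3 (0.0643) lost their calls on 10 arrays.

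The macrophage list had 3 of 10 lower and 0 higher (MSR1 -1.90 ± 0.30, CD14 -1.08 ± 0.27 and AIF1 -0.67 ± 0.15, with a list median of 0.01). With all 10 arrays 2 were lower (AIF1 lost its call, adjusted p = 0.379), with neighboring 5 put back 1 and with the spike-in mean 0. When the dimmest measured probe set stood for each gene, 2 were lower. MSR1 had 2 probe sets past the filter, of which 1 was called lower. The pan-leukocyte list had 1 of 10 lower (CD52) with a median of -0.10. Without neighboring 3, control 1, control 2 or control 4, or with the spike-in mean, that count was 0, and without control 5 it was 3. The mean level of this list was 7.31 to 7.65 on neighboring 1 to 4 and 7.28 to 7.78 on the control arrays. On neighboring 5 it was 7.90, the highest of all arrays. Of 3 measured neutrophil genes S100A8 (2.42 ± 0.27) and S100A12 (1.98 ± 0.28) were higher, and S100A9 did not pass (0.17 ± 0.10, adjusted p = 0.221). Other listed neutrophil genes, among them CXCR1, MPO and ELANE, lay under the filter. The mean of the measured genes was 7.01 to 8.10 on the neighboring arrays, against 5.21 to 6.06 on the control arrays. The part of these cell types in the values of the members was not tested.

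**Figure D5:**
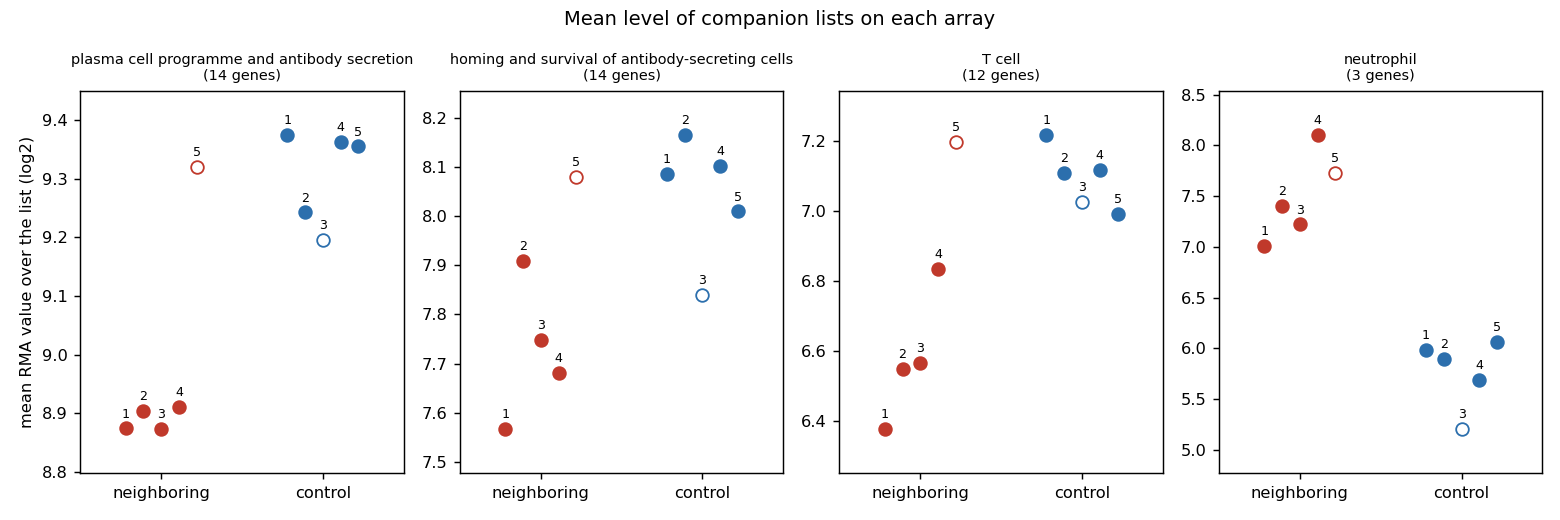
Mean RMA value (log2) over the measured genes of 4 lists on each array, neighboring arrays in red on the left and control arrays in blue on the right, with open circles for neighboring 5 and control 3. For the plasma cell, homing and T cell lists neighboring 5 lies above neighboring 1 to 4 and among the control arrays. On the homing list it is close to neighboring 2 (8.08 against 7.91), and control 3 (7.84) lies below neighboring 2. For the 3 measured neutrophil genes, of which S100A9 was not called, all neighboring arrays, neighboring 5 included, lie above all control arrays.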

How the data were processed

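RNA of mammary tissue from 10 cows was amplified, biotin-labeled and measured on Affymetrix bovine arrays, 1 per cow. What the authors deposited are log2 values for each probe set; the submitters' processing notes name RMA, and its software version was not given in the sources used here. As a step of RMA, quantile normalization hides a change shared by most transcripts, and RMA compresses fold changes of dim probe sets. Array medians were 6.25 to 6.27, and precision is limited by how few arrays there are. The cows are separate animals.

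Arrays were grouped by title, although the source label of the healthy samples also names neighboring tissue. With limma 3.58.1 (R 4.3.3), lmFit and eBayes were run on 14409 probe sets, after 112 array controls and the dimmest 40% by mean over the 10 arrays were left out (this filter stands in for the present calls of the study). Each adjusted p in the text is from limma, and SE is its moderated standard error. Genes were named where the platform annotation gave a probe set 1 symbol (13292 probe sets, 86 with several, 10638 with none), and in lists the brightest probe set stood for a gene. Probe sets of CR2 and MS4A1 are numbered in the order of their identifiers. The procedure was tested on simulated data.

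Named genes were all member probe sets, up to 6 called genes per list with the largest change, and the 5 nearest profiles of PIGR and of the member with the highest SD. List genes named beyond this rule, and IGCGAMMA, were picked after their values were seen. The members and lists were chosen with earlier results of these data known. Alternatives covered the arrays entered, filter, normalization, variance model, a covariate, the replicate number and leaving out each array.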

Additional observations from a re-analysis of the deposited data

How the results depend on the processing

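In place of 3 called members there were 0 on all 10 arrays, with neighboring 5 put back and with the spike-in mean in the model (1, 3 and 0 by limma at an unadjusted p under 0.05), and 1 with array weights, cyclic loess or the replicate block. That 1 was PIGR under each of these settings. Leaving out each array in turn gave 1 to 2 called members. IGHM changed sign with control 3 put back (-0.15) and ran between -0.084 and 0.31 when an array was left out, negative without control 5. MZB1 changed sign on all 10 arrays (0.020) and with neighboring 5 put back (0.026), and MS4A1 probe set 2 with the spike-in mean (0.0053), where no value passed. CR2 probe set 2 passed with control 3 put back (adjusted p = 0.0456). Leaving out the dimmest 60% of probe sets removed members and gave no count of them. Over the array, 1806 probe sets were called on all 10 arrays, 1190 with neighboring 5 put back, 1481 with the replicate block and 251 with the spike-in mean, in place of 4283, and 21 list genes on all 10 arrays in place of 42. Deviations of same-numbered arrays correlated between -0.19 and 0.17, and 1 of 5 neighboring arrays correlated best with its own number, so the numbers only name cows. The cause of these changes was not tested. Low signal, as for MS4A1 probe set 1 and CR2 probe set 2, limits what could be seen for those probe sets.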

Other observations

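The array also carried probe sets named IGCGAMMA, the constant region of the IgG heavy chain, which is not one of the followed genes and was looked up after the values of IGHM were seen. One probe set read 10.83, 10.94, 9.84, 10.54 and 12.39 on neighboring 1 to 5, against 11.62, 11.50, 12.55, 11.48 and 10.70 on control 1 to 5. Control 3 and neighboring 5 were the highest arrays and neighboring 3 the lowest, and neighboring 3 was the lowest array for PIGR too. The difference on 8 arrays was -0.79 ± 0.26 (adjusted p = 0.0422), and on all 10 arrays -0.66 ± 0.43 (adjusted p = 0.291). The call was lost without neighboring 3 (adjusted p = 0.0960), neighboring 4 (0.0758), control 1 (0.102), control 2 (0.0904) or control 4 (0.0956). The second probe set had -0.38 ± 0.18 (adjusted p = 0.125), and on it too control 3 and neighboring 5 were the highest arrays. On the same arrays IGHM had 0.13 ± 0.23, and the difference between the IgG and IgM chains was not tested. Whether the IGCGAMMA probe sets also read other transcripts was not tested either.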
